A study of Arabidopsis thaliana with 15 samples.

Results

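Chlorophyll and heme are made by 1 shared pathway, the tetrapyrrole pathway, and 38 genes of it were examined among the 21593 genes of the expression table. The 38 genes were taken by their gene ID. They comprised 24 synthesis genes (4 for the precursor 5-aminolevulinic acid, ALA, 7 of the common trunk and 13 of the magnesium branch that ends in chlorophyll), 2 regulators, 4 genes of the heme and bilin branch and 8 genes of chlorophyll breakdown. All 38 were listed and all passed the filter on low values, which required a sum of 10 normalized counts over the 15 libraries and left 20512 genes to be tested. The question was how genes of synthesis and genes of breakdown compared over the 5 light conditions.

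The plants were wild-type Arabidopsis thaliana of the ecotype Col-0, grown in an 8 h photoperiod for 6 to 7 weeks, and leaf RNA was sequenced. Controls (GL) were harvested from growth light, a photon flux of 100 μmol per m2 in each second. Plants labeled HL15 and HL60 had a flux of 1000 in the same unit and were sampled after 15 and 60 min. Plants labeled R15 and R60 had the full 60 min of high light and were then put back to growth light, where they were sampled 15 and 60 min later. No group carried a mutation or a transgene. Each condition had 3 biological replicates. GL was a single group, so in each comparison with GL the light treatment and the time of harvest cannot be told apart. In whole leaves, fewer cells of a type and less RNA per cell cannot be told apart either.

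In plants, the pathway starts in the plastid from glutamate bound to its tRNA, and the first committed enzyme, glutamyl-tRNA reductase, sets the flow of ALA. At protoporphyrin IX the pathway splits: magnesium chelatase inserts magnesium toward chlorophyll, and ferrochelatase inserts iron toward heme and the bilins, the chromophores of phytochromes. Free intermediates absorb light and pass energy to oxygen, so the pathway is held under tight control. Chlorophyll is dismantled in a separate route, in which chlorophyll b is first reduced to chlorophyll a, magnesium and the phytol tail are removed, and the ring is opened.

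Levels per kb of the longest annotated transcript spanned a wide range in GL. CRD1, a subunit of the cyclase that closes the fifth ring, stood highest at 50358 ± 319 normalized counts per kb (SD, n = 3). CHLP, which makes the phytyl tail, followed at 19328 ± 226 and CHLH, the large subunit of magnesium chelatase, at 18284 ± 1241 normalized counts per kb. CLH2, a chlorophyllase, was lowest at 9.50 ± 2.33 and PORA, the protochlorophyllide reductase of dark-grown seedlings, was next at 14.7 ± 2.84 normalized counts per kb. Among the breakdown genes, RCCR, the red chlorophyll catabolite reductase, stood highest in GL at 1098 ± 58.0 normalized counts per kb.

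Upstream sequences are shown for 4 genes whose values carry the main contrasts below: CAO and GUN4, which were lower in every treatment, PORB, which turned from lower to higher, and NYC1, a breakdown gene that was higher in every treatment. Each is the sequence on the gene's own strand up to the last base before the annotated start, read 5′ to 3′ from the TAIR10.1 assembly. Capitals mark the motif found. In CAO they mark CACGTG, the G-box bound by light-response factors such as HY5 and the PIFs. In PORB and GUN4 they mark CCAATC, the site bound by GLK1, and in PORB and NYC1 they mark AAAATATCT, the evening element of clock-regulated genes. CAO lies on the minus strand, with the window at chr1:16851272-16851521, PORB on the plus strand at chr4:13725360-13725545, GUN4 on the minus strand at chr3:21949797-21950046 and NYC1 on the minus strand at chr4:7687007-7687256.
CAO: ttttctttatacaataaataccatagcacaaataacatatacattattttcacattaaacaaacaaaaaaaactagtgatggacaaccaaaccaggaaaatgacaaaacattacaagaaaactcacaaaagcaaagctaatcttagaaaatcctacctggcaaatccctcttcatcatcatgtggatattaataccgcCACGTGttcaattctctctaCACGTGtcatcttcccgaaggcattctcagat
PORB: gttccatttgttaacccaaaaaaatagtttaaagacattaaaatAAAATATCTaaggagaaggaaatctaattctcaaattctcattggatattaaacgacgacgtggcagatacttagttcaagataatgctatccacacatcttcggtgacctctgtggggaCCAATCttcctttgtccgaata
GUN4: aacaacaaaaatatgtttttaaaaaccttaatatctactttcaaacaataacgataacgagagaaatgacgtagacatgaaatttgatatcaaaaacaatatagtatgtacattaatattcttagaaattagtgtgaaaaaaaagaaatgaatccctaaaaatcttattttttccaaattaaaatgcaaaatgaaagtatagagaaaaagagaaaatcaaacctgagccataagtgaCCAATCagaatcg
NYC1: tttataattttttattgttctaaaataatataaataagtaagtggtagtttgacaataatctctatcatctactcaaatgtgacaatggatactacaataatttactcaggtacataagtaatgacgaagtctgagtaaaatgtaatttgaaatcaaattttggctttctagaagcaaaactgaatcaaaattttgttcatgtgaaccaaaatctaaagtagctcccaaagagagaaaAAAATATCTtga
The PORB window was shortened to 186 bases because the 64 bases before it are in the last exon of AT4G27435. The last 28 bases of the GUN4 window lie in the first exon of GCN2, which runs on the other strand, and hold its CCAATC. The motifs were searched on both strands in the 250 bases before the start of 20337 genes. A G-box stood in 7.38% of all windows and in 6 of the 38 tetrapyrrole genes (HEMD, CRD1, CAO, FC2, HY2 and NOL), at positions -52 and -32 in CAO. CCAATC stood in 10.6% of all windows and in 3 of the 38 (GSA2, PORB and GUN4). The evening element stood in 2.47% of all windows and in 3 of the 38 (PORA, PORB and NYC1). The heat shock element core GAANNTTC stood in 9.54% of all windows and in 1 of the 38 (HEMB1). A match describes the letters only.

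The libraries held an estimated 14403178 to 28102722 reads, and 1 read corresponded to 0.678 to 1.24 normalized counts. The total of normalized counts was 16003876 to 17400974 in R60 and 17970464 to 20619828 in the other conditions. The 4 leaf mesophyll markers summed to at least 616233 normalized counts in each library, whereas the flower markers summed to at most 41.0 and the seed storage marker to at most 0.798. The 3 guard cell markers summed to 306 to 372 in GL and 153 to 202 in HL15, and the 2 phloem markers to 2285 to 2685 in GL and 1323 to 1577 in HL60. The 2 phloem markers went in opposite directions at HL60, 1 called lower (log2 fold change of -0.96) and 1 called higher (0.55). The mesophyll markers moved at R60, where 3 of the 4 were called lower and their sum was 616233 to 806808, against 911326 or more in every other library. Of 2 senescence markers, SAG12 was not in the expression table, and SAG13 held few counts, 0 to 3.50 in GL and 17.4 to 49.0 in R60. The part of these shifts in the results was not tested.

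Some libraries stood apart from the others of their condition. In HL15 replicate 1, 23 of the 24 synthesis genes were at the highest level of the 3 HL15 libraries, against 42.0% of all genes tested. In HL60 replicate 1, 22 of the 24 were at the lowest level of the 3, against 36.5% of all genes. HL60 replicate 3 held the highest level of 20 of the 24 (30.9% of all genes), and so did R60 replicate 1 (37.0% of all genes). R15 replicate 2 held the lowest level of 17 of the 24 (29.0% of all genes). Counts of called genes without each of these libraries stand beside the results.

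A gene was called when the Benjamini-Hochberg adjusted p of limma was under 0.05, and changes are log2 fold changes of the normalized count plus 1. At HL15, 14 of the 38 genes (36.8%) were called against GL, 6 higher and 8 lower, where 24.6% of all genes were called, 11.4% higher and 13.2% lower. At HL60, 21 (55.3%) were called, 9 higher and 12 lower, against 38.8% of all genes (19.4% higher and 19.4% lower). At R15, 20 (52.6%) were called, 10 in each direction, against 45.8% of all genes (22.9% higher and 22.9% lower). At R60, 24 (63.2%) were called, 7 higher and 17 lower, against 43.5% of all genes (21.4% higher and 22.1% lower). Against all genes tested, the excess was thus smallest at R15. Most of the 38 are well expressed. Among genes with a mean of 50 or more, 31.2%, 48.9%, 56.6% and 53.6% were called at HL15, HL60, R15 and R60. Of the 36 tetrapyrrole genes in that set, 14 (38.9%), 19 (52.8%), 19 (52.8%) and 22 (61.1%) were called. In that set the tetrapyrrole share thus lay below that of all genes at R15 and little above it at HL60.

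The HL15 count fell to 9 without GL replicate 2 or without HL15 replicate 3 and rose to 18 without HL15 replicate 1. The HL60 count was 20 without HL60 replicate 1 and 17 without HL60 replicate 3, the R15 count was 18 without R15 replicate 2, and the R60 count was 25 without R60 replicate 1. The direction of the calls at R15 depended on the scaling: quantile normalization gave 5 higher and 16 lower, and it gave 5 and 13 at HL15 and 5 and 15 at HL60. A change of at least 2-fold was found for 4, 7, 7 and 10 of the 38 at the 4 time points, against 9.45%, 15.6%, 19.8% and 19.3% of all genes.

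**Figure D1:**
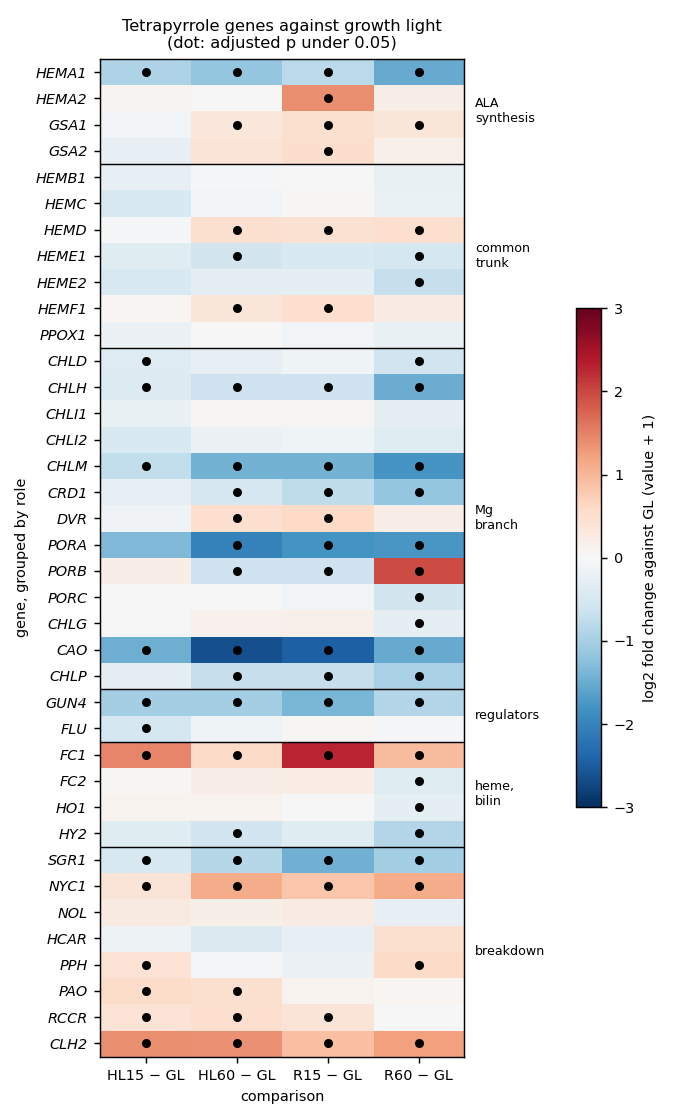
Log2 fold change against GL (color) of the 38 tetrapyrrole genes (rows, grouped by role) in the 4 treatments (columns), with a dot where the adjusted p was under 0.05. The magnesium branch holds more blue (lower) than red (higher) cells, with PORB at R60 and DVR at HL60 and R15 among the red ones, and several breakdown genes are red, while SGR1 is blue throughout.

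The synthesis and the breakdown genes were counted separately, and the difference between their shares was not tested. Of the 24 synthesis genes, none was called higher and 5 lower at HL15, 4 and 9 at HL60, 6 and 8 at R15, and 3 and 12 at R60. In either direction these were 20.8%, 54.2%, 58.3% and 62.5% of them, beside 24.6%, 38.8%, 45.8% and 43.5% of all genes, so that the share at HL15 lay below that of all genes. Of all genes with a mean of 50 or more, 31.2%, 48.9%, 56.6% and 53.6% were called, which is near the synthesis share at R15. Of the 8 breakdown genes, 5 were called higher and 1 lower at HL15, 4 and 1 at HL60, 3 and 1 at R15, and 3 and 1 at R60, beside 11.4%, 19.4%, 22.9% and 21.4% of all genes called higher. The single lower breakdown gene was SGR1 each time.

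In high light the median log2 fold change of the synthesis genes was -0.26 (HL15) and -0.12 (HL60), and in recovery it was -0.11 (R15) and -0.33 (R60), where the median of all genes lay between -0.03 and 0.01. The breakdown genes had medians of 0.39, 0.33, 0.18 and 0.27. In each of the 12 treated libraries, the breakdown median lay above the synthesis median, and it lay above 0 in all 12. The synthesis median lay below 0 in 10 of the 12. These medians carry no test, and the 12 libraries share the same GL mean.

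Several of them were moved by 1 library. The synthesis median at HL60 was 0.01 without HL60 replicate 1 and -0.25 without HL60 replicate 3. At R15 it was -0.06 without R15 replicate 2 and -0.17 without R15 replicate 3, and it was -0.35 with quantile normalization. The breakdown median at R15 was 0.08 without R15 replicate 2 and 0.11 without GL replicate 2. Limited to genes with a mean of 50 or more, which leaves CLH2 out, the breakdown median was 0.186 at HL60 and 0.0593 at R60.

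**Figure D2:**
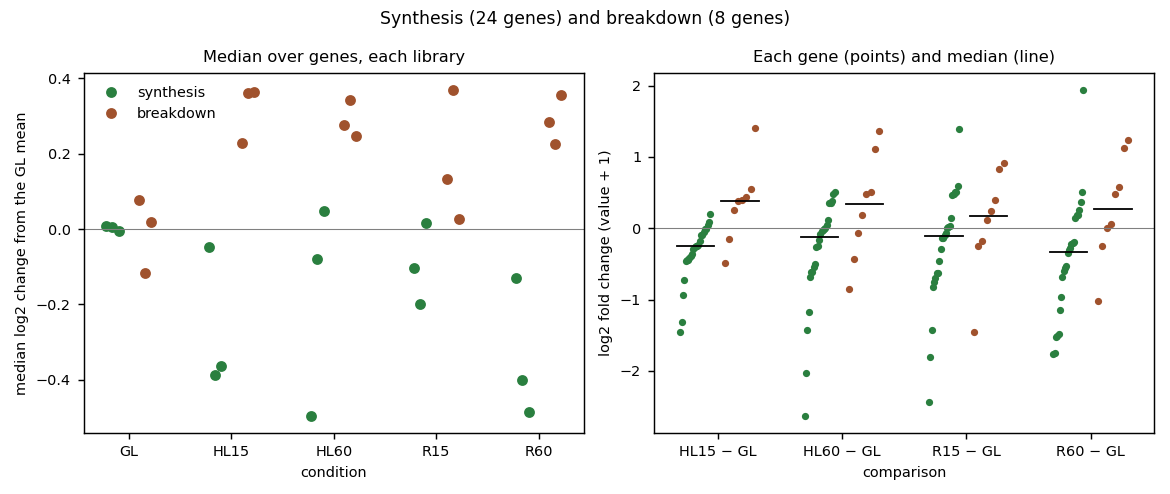
Left, the median log2 change from the GL mean over the 24 synthesis and the 8 breakdown genes in each of the 15 libraries (points). Right, the log2 fold change of each gene (points) with the median of its group (line), by treatment. The breakdown medians lie above the synthesis medians in all 12 treated libraries, and single synthesis genes extend from -2.64 to 1.95.

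ALA synthesis opened the pathway with a strong fall of its main gene. HEMA1 (AT1G58290), the glutamyl-tRNA reductase of green tissue, stood at 26560, 23541 and 30315 normalized counts in GL. It stood at 15995, 13140 and 13005 in HL15, at 12230, 10913 and 12437 in HL60, at 14821, 15971 and 14644 in R15 and at 9478, 9043 and 9464 in R60. All 12 treated libraries lay below the 3 GL libraries. The log2 fold changes against GL were -0.93, -1.17, -0.82 and -1.52 (SE 0.11, adjusted p from 5.8e-05 at HL15 to 1.5e-07 at R60). Between R15 and R60 it fell by 0.70 on the log2 scale (adjusted p = 0.00025).

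HEMA2 (AT1G09940), a second glutamyl-tRNA reductase gene with a much lower level, followed another course. It stood at 293, 239 and 294 normalized counts in GL, at 267, 289 and 322 in HL15, at 208, 264 and 376 in HL60, at 604, 799 and 779 in R15 and at 273, 356 and 314 in R60. Only the R15 libraries stood clear of the GL range, among the 4 treatments. Its log2 fold change at R15 was 1.39 against GL (SE 0.19, adjusted p = 3.0e-05) and 1.39 against HL60 (adjusted p = 8.8e-05), and it fell by 1.20 from R15 to R60 (adjusted p = 0.00016). Per kb, HEMA2 made up 1.07% of the sum of both genes in GL and 4.79% in R15.

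GSA1 (AT5G63570) and GSA2 (AT3G48730) encode the aminotransferase that completes ALA. GSA2 stood at 2615, 2505 and 2176 normalized counts in GL and at 3518, 3047 and 3888 in R15, without overlap. GSA1 stood at 2194, 2078 and 2069 normalized counts in GL and at 3077, 2754 and 3037 in R15, a log2 fold change of 0.48 (SE 0.13, adjusted p = 0.00735), which was lost with quantile normalization. Its calls at HL60 and R60 and the call of GSA2 at R15 were lost without single libraries, with adjusted p up to 0.18, 0.10 and 0.12.

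The 7 genes of the common trunk, lead from ALA to protoporphyrin IX. None was called at HL15, 2 were called higher and 1 lower at HL60, 2 and none at R15, and 1 and 2 at R60. The share called was thus 42.9% at HL60, 28.6% at R15 and 42.9% at R60, beside 38.8%, 45.8% and 43.5% of all genes. No change reached 2-fold. HEMF1 (AT1G03475), a coproporphyrinogen oxidase, stood at 2671, 2601 and 2467 normalized counts in GL and at 3843, 3333 and 3885 in R15, without overlap. Its log2 fold change was 0.51 at R15 (SE 0.11, adjusted p = 0.0019), and this was the single trunk call that held without each of the 15 libraries in turn. HEME1 (AT3G14930) and HEME2 (AT2G40490) encode uroporphyrinogen decarboxylase. HEME2 stood at 3397, 3660 and 3282 normalized counts in GL and at 2500, 2066 and 1892 in R60, and HEME1 at 3027, 3220 and 3207 in GL and at 2417, 2060 and 2069 in R60. Both were lower at R60 without overlap, and both calls were lost without single libraries (adjusted p up to 0.0732 and 0.0848). HEMD (AT2G26540), the uroporphyrinogen III synthase gene, ranged from 572 to 587 in GL, from 588 to 994 in HL60, from 784 to 811 in R15 and from 732 to 938 in R60, and its calls in these treatments were each lost without single libraries (adjusted p up to 0.135). HEMB1 (AT1G69740, ALA dehydratase), HEMC (porphobilinogen deaminase) and PPOX1 (protoporphyrinogen oxidase) were called in none of the 4 treatments.

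The magnesium branch held the largest falls. Of its 13 genes, 4 were called lower and none higher at HL15, 7 and 1 at HL60, 7 and 1 at R15, and 9 and 1 at R60. Those called lower were 30.8%, 53.8%, 53.8% and 69.2% of the branch, beside 13.2%, 19.4%, 22.9% and 22.1% of all genes. In either direction 30.8%, 61.5%, 61.5% and 76.9% were called, beside 24.6%, 38.8%, 45.8% and 43.5% of all genes. Of all genes with a mean of 50 or more, 31.2%, 48.9%, 56.6% and 53.6% were called. The median log2 fold changes were -0.30, -0.50, -0.63 and -0.60. No gene of the branch was called between HL60 and R15, where 23.3% of all genes were called.

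Magnesium chelatase has 3 subunits, and their genes were called in different treatments. CHLH (AT5G13630) stood at 86464, 81237 and 93010 normalized counts in GL, at 72323, 61570 and 62049 in HL15, at 56394, 53155 and 61105 in HL60, at 59960, 53102 and 55858 in R15 and at 35537, 31058 and 27075 in R60. The R60 libraries lay below all others. The log2 fold change was -0.61 at HL60 (SE 0.14, adjusted p = 0.0037), -0.63 at R15 (adjusted p = 0.0025, lost with quantile normalization) and -1.48 at R60 (adjusted p = 1.5e-06). The call at HL15 was lost without single libraries (adjusted p = 0.0487 with all, and 0.158 without HL15 replicate 2).

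CHLD (AT1G08520) stood at 4783, 4601 and 4666 normalized counts in GL and at 3398, 3015 and 2887 in R60, a log2 fold change of -0.60 (SE 0.12, adjusted p = 0.00084). In HL15 it stood at 4089, 3374 and 3283, in HL60 at 3331, 4095 and 4475 and in R15 at 4053, 4063 and 4724. Its call at HL15 was lost when any 1 of 5 libraries was left out (adjusted p up to 0.11). The ATPase subunit genes CHLI1 (AT4G18480) and CHLI2 (AT5G45930) were called in no treatment. CHLI1 ranged from 9434 to 9958 normalized counts in GL, from 7311 to 10118 in HL15, from 8876 to 10884 in HL60, from 9130 to 10457 in R15 and from 7248 to 8813 in R60. CHLI2 ranged from 1439 to 1560 in GL, from 970 to 1452 in HL15, from 1143 to 1527 in HL60, from 1237 to 1537 in R15 and from 1067 to 1438 in R60. CHLI1 made up between 85.9% and 87.6% of the sum of both per kb in all 5 conditions.

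CHLM (AT4G25080), the methyltransferase that follows the chelatase, was lower in every treatment. It stood at 8659, 8699 and 8763 normalized counts in GL, at 5808, 4848 and 5168 in HL15, at 2627, 3726 and 3481 in HL60, at 3281, 2972 and 3480 in R15 and at 3047, 2079 and 2661 in R60. No treated library reached the GL range, and log2 fold changes were -0.73, -1.43, -1.43 and -1.76 (SE 0.14, adjusted p from 0.0023 to 3.0e-07), so that the R60 mean was 3.35-fold below GL.

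CRD1 (AT3G56940), the gene with the highest level per kb, stood at 75501, 74637 and 75417 normalized counts in GL and at 72245, 58348 and 58982 in HL15. It then stood at 51332, 54997 and 52792 in HL60, at 47222, 43806 and 43187 in R15 and at 38323, 31550 and 32227 in R60. From HL60 on it was lower than GL, by 0.50, 0.75 and 1.15 on the log2 scale (SE 0.13, adjusted p = 0.0081, 0.00036 and 8.4e-06). CHLP (AT1G74470), the geranylgeranyl reductase, fell by 0.68 at HL60, by 0.70 at R15 and by 0.96 at R60 (SE 0.11, adjusted p from 0.00023 to 7.4e-06). It stood at 40559, 39796 and 40658 normalized counts in GL, at 22884, 26513 and 26232 in HL60, at 25241, 24129 and 25029 in R15 and at 22216, 20122 and 19756 in R60.

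DVR (AT5G18660), the divinyl reductase, moved the other way. It stood at 2125, 2082 and 1980 normalized counts in GL and at 3215, 2709 and 3428 in R15, with a log2 fold change of 0.59 (SE 0.16, adjusted p = 0.0069). This call was lost with quantile normalization. The call at HL60 was lost when any 1 of 3 libraries was left out (adjusted p up to 0.079) and under 1 change of settings. CHLG (AT3G51820), the chlorophyll synthase that attaches the phytyl tail, ranged from 4515 to 4737 in GL and from 3347 to 4260 in R60. This call was lost when any 1 of 3 libraries was left out (adjusted p up to 0.091).

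Chlorophyllide a oxygenase, CAO (AT1G44446), makes chlorophyll b and showed the largest fall among the 38. It stood at 10334, 9989 and 11052 normalized counts in GL, at 4266, 3597 and 3588 in HL15, at 1459, 1677 and 1939 in HL60, at 1854, 2101 and 1825 in R15 and at 3689, 3558 and 3694 in R60. The 5 groups fell into 3 tiers, with GL highest, HL15 and R60 between, and HL60 and R15 lowest. The means were 2.74-fold, 6.18-fold, 5.43-fold and 2.87-fold below GL, and the log2 fold changes were -1.46, -2.64, -2.44 and -1.52 (SE 0.11, adjusted p from 3.6e-07 at HL15 to 7.2e-10 at HL60). From HL15 to HL60 it fell by 1.18 on the log2 scale (adjusted p = 2.3e-06), and from R15 to R60 it rose by 0.92 (adjusted p = 1.2e-05). CAO is the gene printed above with G-boxes at -52 and -32.

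The 3 protochlorophyllide oxidoreductases carry out the light-dependent step. PORB (AT4G27440) was called in both directions, as no other of the 38 was. It stood at 3814, 3840 and 4260 normalized counts in GL, at 5907, 3986 and 4050 in HL15, at 2157, 2564 and 3124 in HL60, at 2555, 2628 and 2512 in R15 and at 13697, 16425 and 15859 in R60. The HL60 and R15 libraries lay below GL and the R60 libraries far above it. The log2 fold changes were -0.62 at HL60 (SE 0.15, adjusted p = 0.0048), -0.63 at R15 (adjusted p = 0.0034) and 1.95 at R60 (adjusted p = 1.9e-07). The step from R15 to R60 was 2.57 (adjusted p = 3.6e-08).

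PORC (AT1G03630), the isoform of mature leaves, stood at 7753, 8014 and 7903 normalized counts in GL, at 9171, 7351 and 7218 in HL15, at 7412, 8322 and 7840 in HL60, at 7468, 7170 and 7602 in R15 and at 6483, 4734 and 4978 in R60. It was lower at R60 only among the 4 treatments, by 0.56 on the log2 scale (SE 0.12, adjusted p = 0.0015). PORA (AT5G54190) held few counts, with 24.4, 27.9 and 18.8 in GL, 11.9, 5.42 and 10.4 in HL15, 1.98, 6.57 and 8.44 in HL60, 8.02, 4.95 and 5.37 in R15 and 3.57, 4.79 and 13.3 in R60. Its log2 fold changes were -2.03, -1.80 and -1.75 at HL60, R15 and R60 (SE 0.50, adjusted p = 0.0049, 0.0085 and 0.011), and on this scale they understate the change of a gene with so few counts. Per kb, PORB made up 35.3% ± 1.4 of the 3 genes in GL, 26.5% ± 3.3 in HL60 and 75.4% ± 5.0 in R60 (SD, n = 3), while PORC went from 64.5% ± 1.4 to 24.5% ± 5.0 between GL and R60.

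**Figure D3:**
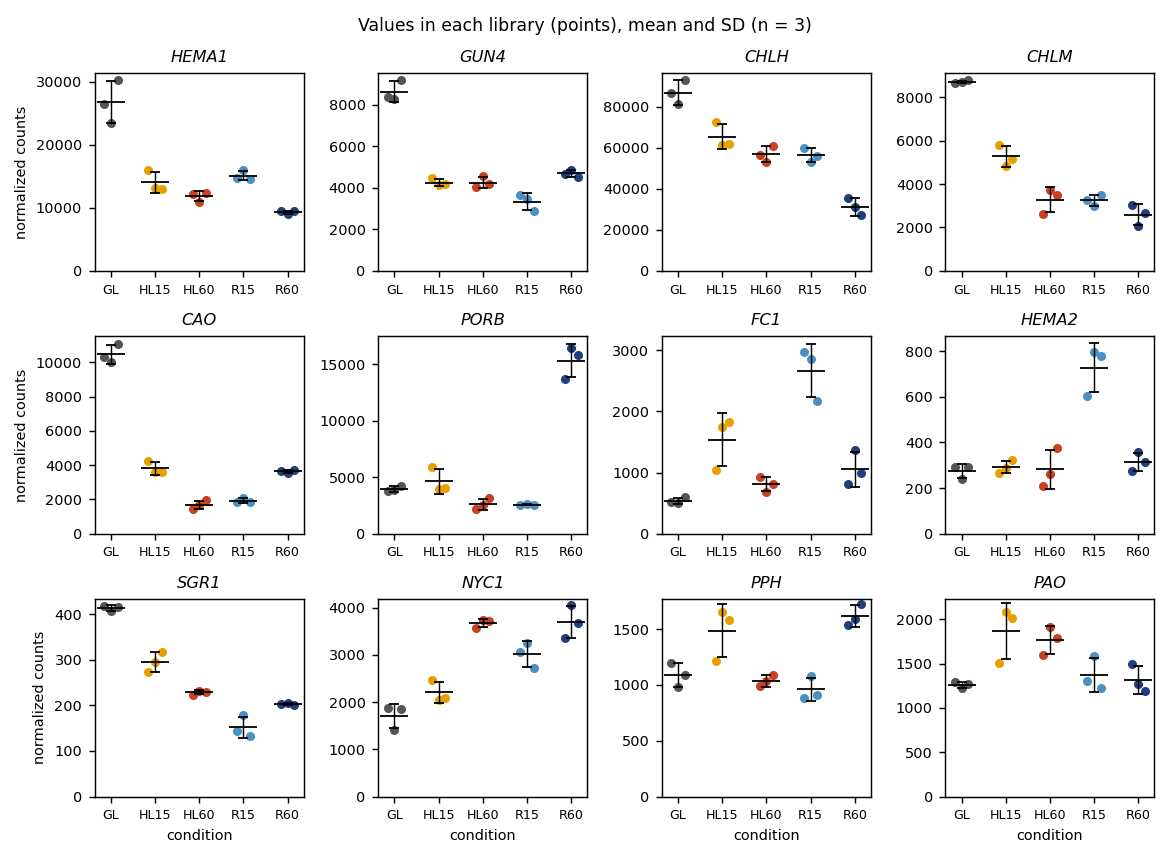
Normalized counts of 12 tetrapyrrole genes in each of the 15 libraries (points, 3 per condition), with the mean and SD (bars); every vertical axis starts at 0. HEMA1, GUN4, CHLH, CHLM, CAO and SGR1 lie below GL in all treated libraries, PORB rises to 13697 to 16425 in R60, and FC1 and HEMA2 have their highest means in R15.

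The 2 regulators were GUN4 (AT3G59400), which binds porphyrins and activates magnesium chelatase, and FLU (AT3G14110), which represses glutamyl-tRNA reductase. GUN4 stood at 8391, 8302 and 9204 normalized counts in GL, at 4453, 4115 and 4195 in HL15, at 4049, 4548 and 4170 in HL60, at 3644, 3469 and 2876 in R15 and at 4680, 4884 and 4536 in R60. All treated libraries lay below GL, with log2 fold changes of -1.02, -1.02, -1.38 and -0.88 (SE 0.09, adjusted p from 3.9e-06 to 5.5e-08), and from R15 to R60 it rose by 0.50 (adjusted p = 0.00068). GUN4 shared 72.4% of its 31-base words with GCN2, a kinase gene that overlaps it on the other strand and whose group means were 530 to 743 normalized counts, and the strand of the reads was not given in the sources used here.

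FLU stood at 1566, 1432 and 1221 normalized counts in GL, at 1157, 879 and 907 in HL15, at 977, 1381 and 1549 in HL60, at 1471, 1230 and 1625 in R15 and at 1433, 1308 and 1338 in R60. Only the HL15 libraries were called lower, by 0.52 on the log2 scale (SE 0.16, adjusted p = 0.030), and this was lost when any 1 of 4 libraries was left out (adjusted p up to 0.118).

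The heme and bilin branch begins with 2 ferrochelatase genes. FC1 (AT5G26030), the ferrochelatase also found in roots and known to respond to stress, stood at 515, 504 and 599 normalized counts in GL, at 1040, 1748 and 1823 in HL15, at 927, 689 and 817 in HL60, at 2974, 2857 and 2165 in R15 and at 810, 1371 and 990 in R60. It was high after each change of light, at HL15 and again at R15, and lower in between, with no treated library in the GL range. The log2 fold changes were 1.47 at HL15 (SE 0.22, adjusted p = 0.00029), 2.29 at R15 (adjusted p = 1.3e-06) and 0.94 at R60 (adjusted p = 0.0030). Steps between neighboring times were a fall of 0.89 from HL15 to HL60 (adjusted p = 0.0060), a rise of 1.71 to R15 (adjusted p = 5.9e-05) and a fall of 1.35 to R60 (adjusted p = 0.00022). The call against GL at HL60 was lost without single libraries (adjusted p = 0.0485 with all, and 0.128 without GL replicate 2).

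FC2 (AT2G30390), the ferrochelatase of photosynthetic tissue, stood at 2995, 2996 and 3190 normalized counts in GL, at 3260, 3146 and 3006 in HL15, at 3627, 3441 and 3550 in HL60, at 3448, 3754 and 3488 in R15 and at 2869, 1899 and 2438 in R60. From R15 to R60 it fell by 0.59 on the log2 scale (SE 0.11, adjusted p = 0.00093). Its call against GL at R60 was lost when any 1 of 2 libraries was left out (adjusted p up to 0.079) and under 1 change of settings. Per kb, FC1 made up 14.6% ± 0.74 of both genes in GL, 31.9% ± 7.2 in HL15, 18.1% ± 1.8 in HL60 and 41.9% ± 4.0 in R15 (SD, n = 3). In R60 its share ranged from 21.5% to 41.2%.

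HO1 (AT2G26670), the heme oxygenase that opens heme to biliverdin, stood at 1640, 1537 and 1522 normalized counts in GL, at 1766, 1595 and 1727 in HL15, at 1764, 1678 and 1643 in HL60, at 1540, 1706 and 1514 in R15 and at 1541, 1153 and 1231 in R60. Its call at R60 was lost when any 1 of 6 libraries was left out (adjusted p up to 0.18) and under 2 changes of settings. HY2 (AT3G09150), which reduces biliverdin to the phytochrome chromophore, fell from 204, 181 and 219 in GL to 148, 122 and 133 in HL60 and 117, 101 and 111 in R60. These were log2 fold changes of -0.58 (SE 0.16, adjusted p = 0.011) and -0.87 (adjusted p = 0.00054).

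**Figure D4:**
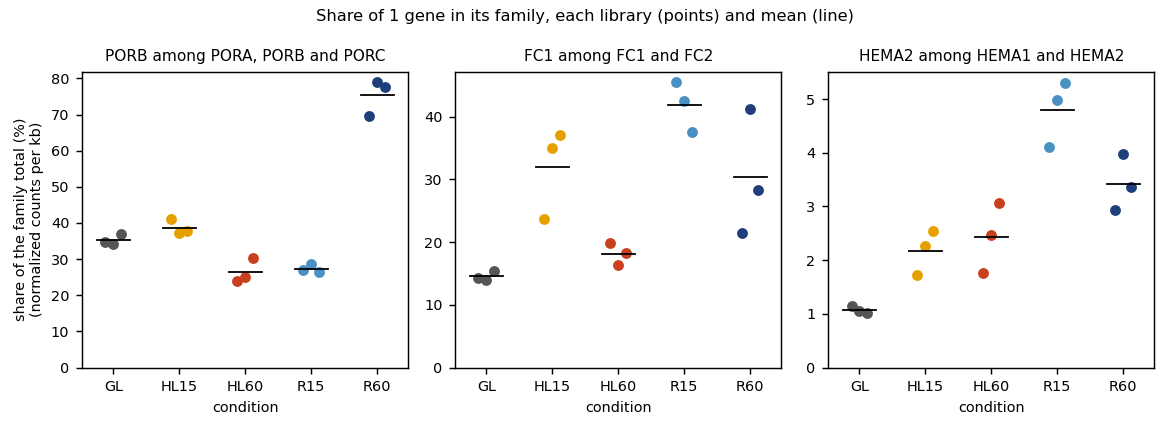
Share of PORB, FC1 and HEMA2 in the sum of their gene family, in percent of normalized counts per kb, in each library (points) with the mean (line) of the 3 libraries. PORB makes up 69.7 to 79.1% of its family in R60, FC1 has its highest mean share in R15 and HEMA2 does not pass 5.29% in any library.

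Of the 8 breakdown genes, SGR1 was lower in all 4 treatments, NYC1, PPH, PAO, RCCR and CLH2 were each higher in at least 1, and NOL and HCAR were called in none of the 4 against GL. SGR1 (AT4G22920), the magnesium dechelatase that starts the loss of chlorophyll a, stood at 418, 406 and 415 normalized counts in GL, at 272, 296 and 318 in HL15, at 224, 232 and 230 in HL60, at 144, 178 and 132 in R15 and at 203, 205 and 200 in R60. It was lowest in R15, and no treated library reached GL. Its log2 fold changes were -0.49, -0.85, -1.45 and -1.02 (SE 0.11, adjusted p from 0.0057 to 1.6e-07), with a fall of 0.60 between HL60 and R15 (adjusted p = 0.0012).

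NYC1 (AT4G13250), a chlorophyll b reductase, stood at 1866, 1405 and 1850 normalized counts in GL, at 2472, 2052 and 2093 in HL15, at 3573, 3731 and 3709 in HL60, at 3068, 3260 and 2728 in R15 and at 3366, 4057 and 3677 in R60. Every treated library lay above the GL range, and the log2 fold change was 1.12 at HL60, 0.83 in R15 and 1.12 in R60 (SE 0.12, adjusted p = 4.4e-06, 5.1e-05 and 3.3e-06). The call at HL15 was lost when any 1 of 3 libraries was left out (adjusted p up to 0.16) and under 4 changes of settings. NOL (AT5G04900), the other chlorophyll b reductase, and HCAR (AT1G04620), which reduces hydroxymethyl chlorophyll, were called against GL in no treatment. NOL fell by 0.49 from R15 to R60 (SE 0.13, adjusted p = 0.0084). Of the chlorophyll b genes, CAO was thus lower and NYC1 higher than GL in all 4 treatments, with the HL15 call of NYC1 resting on single libraries. This did not extend to NOL and HCAR.

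PPH (AT5G13800), the pheophytinase that removes the phytol tail, stood at 1199, 980 and 1090 normalized counts in GL, at 1216, 1656 and 1581 in HL15, at 988, 1030 and 1087 in HL60, at 886, 1082 and 909 in R15 and at 1534, 1589 and 1727 in R60. It was higher in R60, with a log2 fold change of 0.57 (SE 0.12, adjusted p = 0.0013), and rose by 0.76 from R15 to R60 (adjusted p = 0.00018). Between HL15 and HL60 it fell by 0.51 (adjusted p = 0.00445), while its call at HL15 was lost when any 1 of 3 libraries was left out (adjusted p up to 0.084).

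PAO (AT3G44880), the oxygenase that opens the ring, stood at 1292, 1222 and 1273 normalized counts in GL, at 1511, 2083 and 2014 in HL15, at 1602, 1911 and 1793 in HL60, at 1299, 1590 and 1229 in R15 and at 1499, 1272 and 1192 in R60. It was higher in high light, by 0.55 at HL15 and 0.48 at HL60 on the log2 scale (SE 0.13, adjusted p = 0.0076 and 0.0096), and its recovery libraries overlapped those of GL. RCCR (AT4G37000), which acts next, stood at 1725, 1558 and 1685 normalized counts in GL, at 2146, 2182 and 2216 in HL15, at 2652, 2385 and 2039 in HL60, at 2044, 2324 and 2157 in R15 and at 1747, 1531 and 1704 in R60. It rose by 0.40 at HL15, 0.50 at HL60 and 0.39 at R15 (SE 0.10, adjusted p = 0.0077, 0.00079 and 0.0038), the R15 call being lost with quantile normalization.

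CLH2 (AT5G43860) held few counts, with 11.1, 14 and 8.48 in GL, 28.3, 29.1 and 34.9 in HL15, 28.7, 28.5 and 32.7 in HL60, 28.1, 23.5 and 15.0 in R15 and 18.7, 24.8 and 43.3 in R60. CLH2 had log2 fold changes of 1.40 at HL15, 1.37 at HL60 and 1.24 at R60 (SE 0.32, adjusted p = 0.0053, 0.0033 and 0.0054). The R15 call was lost when any 1 of 4 libraries was left out (adjusted p up to 0.11) and under 1 change of settings. CLH2 shared 71.0% of its 31-base words with AT5G43870, which overlaps it on the other strand at group means of 387 to 647 normalized counts, so reads of that gene cannot be told apart from CLH2 reads without strand. Of the other 37 genes, 15 shared no 31-base word with another gene, 20 shared under 10%, and GUN4 and CHLP shared more.

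Among the 4 treatments, 6 of the 38 were called lower in each (HEMA1, CHLH, CHLM, CAO, GUN4 and SGR1) and 3 higher in each (FC1, NYC1 and CLH2). For CHLH, FC1, NYC1 and CLH2, 1 of these calls was lost without single libraries, as given above. Another 7 were called in none of the 4 (HEMB1, HEMC (AT5G08280), PPOX1 (AT4G01690), CHLI1, CHLI2, NOL and HCAR). The shares of all genes with these patterns were not counted. The 4 comparisons share the GL libraries, so their calls are not independent.

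From HL15 to HL60, 13 (34.2%) were called, 6 higher and 7 lower, against 35.7% of all genes (18.3% higher and 17.4% lower), and the count was 16 without HL15 replicate 1, 18 without HL60 replicate 1, 9 without HL60 replicate 3, and 8 without HL15 replicate 2 or HL15 replicate 3. From HL60 to R15, the first 15 min after the light was lowered, 5 (13.2%) were called, 3 higher and 2 lower, against 23.3% of all genes (11.6% higher and 11.7% lower). The 5 were HEMA1, HEMA2 and FC1 (higher) and GUN4 and SGR1 (lower). The calls of HEMA1 and GUN4 were lost without single libraries (adjusted p up to 0.13 and 0.069), and the count was 3 without HL60 replicate 2 or R15 replicate 3. From R15 to R60, 19 were called, 6 higher and 13 lower, against 41.0% of all genes (20.8% higher and 20.2% lower). With quantile normalization the last step gave 7 in each direction. Changes of at least 2-fold numbered 1, 2 and 3 in the 3 steps, against 12.6%, 9.70% and 15.2% of all genes. Among genes with a mean of 50 or more, 46.4%, 29.8% and 51.9% were called in the 3 steps, and 13 (36.1%), 5 (13.9%) and 20 (55.6%) of the 36 tetrapyrrole genes. The 3 steps share conditions with each other and with the comparisons against GL.

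Other genes of the pathway were described from lists of 13 further synthesis and branch genes, of which 12 were tested, and 6 further breakdown genes. Of the 12, 1 was called higher and 2 lower in each of HL15, HL60 and R15, and none higher and 3 lower in R60. This was 25% of them in each treatment, beside 24.6%, 38.8%, 45.8% and 43.5% of all genes, near that share at HL15 and below it later. UPM1, which leads uroporphyrinogen III into siroheme, the cofactor of sulfite and nitrite reductases, stood at 1180, 968 and 1174 normalized counts in GL, at 925, 639 and 638 in HL15, at 3507, 1817 and 1693 in HL60, at 7792, 7514 and 8240 in R15 and at 770, 1326 and 1130 in R60. UPM1 was highest in R15, as were HEMA2 and FC1, at a log2 fold change of 2.83 (SE 0.25, adjusted p = 5.9e-07), and fell by 2.90 to R60 (adjusted p = 9.5e-07). LIL3:2, one of a pair of proteins that hold CHLP in the membrane, stood at 5078, 5094 and 4997 in GL and at 3582, 3286 and 3290 in R60, a log2 fold change of -0.58 (SE 0.08, adjusted p = 4.1e-05). HO3, a heme oxygenase gene with few counts, went from 54.2, 43.0 and 83.4 in GL to 143, 186 and 180 in HL15. This call (adjusted p = 0.013 with all libraries) was lost when any 1 of 2 libraries was left out (adjusted p up to 0.062).

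Of the 6 breakdown genes, 1 was called higher and 1 lower at HL15, 3 and 1 at HL60, 2 and 2 at R15, and 1 and 3 at R60. These were 33.3%, 66.7%, 66.7% and 66.7% of them, beside 24.6%, 38.8%, 45.8% and 43.5% of all genes. SGRL, an SGR-like dechelatase gene, behaved like SGR1 in direction, with log2 fold changes of -0.94, -1.37, -1.30 and -1.63 (SE 0.10, adjusted p from 1.4e-05 to 1.9e-08). MES16, a methylesterase acting on late catabolites, stood at 177, 174 and 157 normalized counts in GL, at 267, 242 and 288 in R15 and at 36.6, 45.5 and 26.7 in R60. It was higher at R15 by 0.64 (SE 0.19, adjusted p = 0.012) and lower at R60 by 2.22 on the log2 scale (adjusted p = 4.3e-07). CLH1, a chlorophyllase gene known to respond to jasmonate, stood at 3404, 3246 and 3916 in GL, at 3497, 26295 and 33462 in HL60, at 13854, 16642 and 13049 in R15 and at 20176, 10629 and 17692 in R60. HL60 replicate 1 stayed in the GL range while the other HL60 libraries lay far above it, and the HL60 call was lost without either of them (adjusted p up to 0.060). The log2 fold changes at R15 and R60 were 2.04 and 2.15 (SE 0.58, adjusted p = 0.0096 and 0.0074).

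Transcription factors known to act on the pathway were taken from 2 lists. Of 9 known for synthesis genes, 2 were called higher and 2 lower at HL15, 3 and 3 at HL60, 4 and 4 at R15, and none higher and 6 lower at R60. These were 44.4%, 66.7%, 88.9% and 66.7% of them, beside 24.6%, 38.8%, 45.8% and 43.5% of all genes. HY5, an activator of light-induced genes, stood at 73.1, 70.8 and 74.1 normalized counts in GL, at 873, 909 and 818 in HL60 and at 26.2, 24.3 and 29.3 in R60, log2 fold changes of 3.56 (SE 0.16, adjusted p = 1.3e-09) and -1.42 (adjusted p = 5.5e-06). PIF1, which represses chlorophyll synthesis in dark-grown seedlings, fell from 628, 584 and 639 in GL to 81.2, 47.3 and 42.6 in HL60 and stood at 257, 225 and 245 in R60 (log2 fold changes of -3.47 and -1.35, SE 0.20, adjusted p = 1.4e-08 and 8.9e-05). CGA1, a GATA factor that promotes chlorophyll synthesis, was at 89.8, 139 and 82.9 in GL and at 1533, 706 and 550 in HL60 (log2 fold change of 3.04, SE 0.33, adjusted p = 6.2e-06). In R60 CGA1 was at 32.1, 54.3 and 54.4, lower than in GL by 1.13 on the log2 scale (adjusted p = 0.013), and this call was lost without single libraries (adjusted p up to 0.067).

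Of 7 factors known for breakdown genes, 1 was called higher and none lower at HL15, 2 and 2 at HL60, 3 and 2 at R15, and 3 and 1 at R60. These were 14.3%, 57.1%, 71.4% and 57.1% of them, beside 24.6%, 38.8%, 45.8% and 43.5% of all genes. MYC2, the factor of jasmonate responses, stood at 825, 575 and 961 normalized counts in GL, at 2620, 6284 and 6257 in HL15, at 2384, 8071 and 10304 in HL60, at 11760, 14437 and 13714 in R15 and at 7905, 5060 and 5969 in R60. HL15 replicate 1 and HL60 replicate 1 held the lowest MYC2 values of their conditions. The synthesis genes of these libraries stood apart in opposite directions, 23 of 24 highest in HL15 replicate 1 and 22 of 24 lowest in HL60 replicate 1. The log2 fold change of MYC2 was 4.10 at R15 (SE 0.45, adjusted p = 4.2e-06). NAC019, another stress-responsive factor, went from 23.3, 15.0 and 21.7 in GL to 368, 404 and 300 in R15 (log2 fold change of 4.11, SE 0.80, adjusted p = 0.00076). ORE1, a senescence factor, held at most 8.48 normalized counts in any library and was listed at 0 in all HL60 and R15 libraries, and its calls there were lost without single libraries.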

How the data were processed

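Leaf RNA of 15 libraries (5 conditions, 3 biological replicates each) was sequenced. The authors quantified reads with Salmon 0.12 against the TAIR transcripts and named DESeq2 for their statistics. The deposited signal values are normalized counts per gene. From the values alone, they looked like read counts divided by a library factor and, for many genes, a further factor that may reflect transcript length; the step is not given in the sources used here. Whole reads could not be recovered for all genes, so a count model was not used. Values were analyzed as log2(value + 1) with limma 3.58.1 in R 4.3.3, in 1 fit of all 15 libraries with a variance trend and 10 residual degrees of freedom. Genes with a sum under 10 were left out (1081 of 21593), and p-values were adjusted by Benjamini-Hochberg within each of 7 comparisons over 20512 genes. The differences R60 minus HL15, R60 minus HL60 and R15 minus HL15, given for flagged genes only, are not among these 7. The pseudocount understates the change of low genes. With 3 against 3 libraries, an exact permutation test cannot go below 0.1.

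The members and lists were chosen with earlier results of these data known. Values per library are given for 19 members picked by function and, per role, up to 3 more with the largest called change against GL. Other genes follow the same rule of 3 per list. Alternatives were 9 changes of settings and leaving out each of the 15 libraries. Reads per library were estimated by dividing the library total by its most frequent nonzero value, taken as the value of a single read. Upstream sequences and gene positions are from RefSeq, TAIR10.1; 21389 of the 21593 gene IDs had a locus tag there. Levels per kb use the longest annotated transcript. Words of 31 bases shared between transcripts were counted on both strands.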

Additional observations from a re-analysis of the deposited data

Results flagged for a closer look

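Differences between time points are given for 6 genes that were called in opposite directions against GL, each with a limma fit of the 2 time points. The genes and pairs were chosen by those calls in the same libraries. A low adjusted p was thus nearly fixed in advance and adds no independent support. PORB was lower at HL60 and R15 and higher at R60, so that R60 exceeded HL60 by 2.56 and R15 by 2.57 on the log2 scale (adjusted p = 1.42e-08 and 3.59e-08). MES16 was higher at HL60 and R15 and lower at R60, with differences of -2.82 (R60 minus HL60) and -2.87 (R60 minus R15) on the log2 scale (adjusted p = 4.58e-08 and 8.68e-08). TIC55, which acts on a catabolite of chlorophyll, was higher at HL60 and lower at R60, a difference of -0.64 (adjusted p = 0.00012). CYP89A9, which also acts on catabolites, was higher at HL15 and lower at R15, a difference of -1.67 (adjusted p = 6.02e-05). HY5 was higher at HL15, HL60 and R15 and lower at R60, with differences of -4.34, -4.98 and -2.40 between R60 and these conditions (adjusted p = 1.91e-10, 6.95e-11 and 8.68e-08). CGA1 had the same directions, with differences of -2.20, -4.17 and -2.76 (adjusted p = 7.69e-05, 2.77e-07 and 1.94e-05). The separate calls against GL of TIC55 and CYP89A9, of MES16 at HL60 and of CGA1 at HL15 and R60 were each lost without at least 1 library, with adjusted p up to 0.0888 (TIC55), 0.108 (CYP89A9), 0.0752 (MES16) and 0.104 (CGA1).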

How the results depend on the processing

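Of 266 gene comparisons of the 38 genes, 116 passed, of which 73 passed under every alternative and 43 were lost under at least 1. Of the 150 that did not pass, 70 changed sign without passing under at least 1 alternative and were left out of the next count. Among the rest, 35 passed under at least 1. No called change reversed. Leaving out 1 library gave 9 to 18 called genes at HL15, 15 to 21 at HL60, 17 to 21 at R15, 18 to 26 at R60, 8 to 18 from HL15 to HL60, 3 to 6 from HL60 to R15 and 16 to 25 from R15 to R60. The synthesis medians ranged from -0.38 to -0.20, -0.25 to 0.01, -0.17 to -0.06 and -0.44 to -0.25 at HL15, HL60, R15 and R60, and the breakdown medians from 0.30 to 0.44, 0.27 to 0.37, 0.08 to 0.25 and 0.21 to 0.31. Asking for 2-fold gave 4, 7, 7 and 10 against GL and 1, 2 and 3 for the steps. A fit of only the 2 conditions compared gave 7 from HL15 to HL60 and 3 from HL60 to R15. Quantile normalization gave a synthesis median of -0.35 at R15 and a breakdown median of 0.26 at HL60, and a mean of 50 or more gave breakdown medians of 0.186 at HL60 and 0.0593 at R60. Upper quartile rescaling and quantile normalization gave 2 higher and 4 lower and 3 and 4 from HL60 to R15. The cause was not tested. Replicate numbers did not pair the libraries (30 same-numbered pairs, r from -0.083 to 0.137, 2 over 0.1); a replicate block gave 13, 19, 19 and 24 called genes against GL and 12, 5 and 19 for the steps. Low counts limit PORA and CLH2.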
